A study of Mus musculus with 8 samples.

Results

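Nuclear pore and nuclear transport genes were examined in muscle stem cells (MuSCs) of aged mice that were cultured with nicotinamide and pyridoxine. The members were the protein-coding genes whose symbol begins with Nup, Kpna, Kpnb, Ipo, Xpo or Tnpo followed by a digit, a rule on names alone, although these families were picked for description with earlier results of these data known. It found 43 genes among the 55487 identifiers of the count table, of which 21 encode nucleoporins and 22 encode transport receptors of the importin, transportin and exportin families. After the filter on low counts, 40 of the 43 were among the 12060 genes tested. MuSCs were sorted by flow cytometry from hindlimb muscle of old mice, as cells negative for CD31, CD45, CD11b and Sca1 and positive for integrin α7 and CD34, and were grown for 72 hours in growth medium with 1% DMSO as vehicle or with nicotinamide (NAM, a form of vitamin B3) and pyridoxine (PN, a form of vitamin B6) together. The pair is labelled 1 mM, with no concentration for each compound. Each condition had 4 libraries, 1 from each of 4 pools of 2 mice, and the libraries of a pool share their mice. The labels call the mice old, and the study describes wild-type male C57BL/6JRj mice. The comparison belongs to the question whether NAM/PN restores functions that MuSCs lose with age.

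All traffic of proteins and most RNAs between nucleus and cytoplasm passes through nuclear pore complexes, which are stacked rings of nucleoporins in the nuclear envelope. Outer rings and an inner ring form the scaffold, and nucleoporins rich in phenylalanine-glycine (FG) repeats fill the channel. Importins bind nuclear localization signals in the cytoplasm and release their cargo when they meet the GTP-bound form of the small GTPase Ran inside the nucleus, whereas exportins bind cargo together with Ran-GTP. Dividing cells dismantle and rebuild these complexes at each mitosis, and in muscle the composition of the pore changes as myoblasts differentiate, with Nup210 as the known example of a nucleoporin that appears during myogenesis.

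Libraries held between 6472484 and 10163101 counts. Libraries were made from the 3′ end of transcripts, so values are given as CPM, the count of a gene scaled to a common library size, and were not divided by gene length. Pax7 and Myod1, which define MuSCs and myoblasts, were measured in every library, at between 97.3 and 247 CPM and between 1038 and 1561 CPM. Summed over 14 markers of differentiating muscle, expression lay between 2192 and 4099 CPM with vehicle against values between 530.4 and 1358 CPM with NAM/PN, and 10 of the 14 fell at an adjusted p under 0.05 while 0 rose. The 16 S-phase genes summed to between 1989 and 2513 CPM with vehicle against values between 2595 and 2909 CPM with NAM/PN, and the 16 genes of G2 and mitosis to between 3002 and 3310 CPM with vehicle against values between 3003 and 3478 CPM with NAM/PN. In bulk RNA, fewer cells of a kind and less RNA per cell cannot be told apart, and the part of these shifts in the results that follow was not tested. Ptprc, Adgre1, Csf1r, Flt1, Cldn5, Pdgfra and Lum, which define immune, endothelial and fibro-adipogenic cells, had 0 counts in all libraries, while others of these lists that stayed untested had some, with totals over the 8 libraries of 48 counts for Pecam1, 44 for Cdh5, 18 for Tek, 11 for Kdr, 96 for Ly6a and 14 for Pi16. Summed over the tested genes of each list, 3 of 8 mural markers gave 285 to 606 CPM (vehicle) and 95.9 to 156 CPM (NAM/PN), with Acta2 lower at an adjusted p under 0.05. For 2 of 8 fibro-adipogenic markers the sums were 151 to 207 CPM (vehicle) and 57 to 1117 CPM (NAM/PN), with Col3a1 lower at an adjusted p under 0.05. The other, Col1a1, had 486 and 1032 CPM in NAM/PN replicates 1 and 2, against 3.27 and 3.96 CPM in the other NAM/PN libraries and 1.74 to 41.3 CPM with vehicle (log2 fold change 4.97, edgeR adjusted p = 0.0709). The sums were 3.21 to 14.7 CPM (vehicle) and 9.85 to 29.5 CPM (NAM/PN) for 1 of 8 endothelial markers, 0.979 to 7.58 CPM (vehicle) and 3.5 to 7.14 CPM (NAM/PN) for 1 of 8 immune markers and 0 to 13.3 CPM (vehicle) and 7.88 to 18.4 CPM (NAM/PN) for 2 of 6 Schwann cell markers. For 10 of 12 markers of MuSCs and myoblasts they were 3084 to 3542 CPM (vehicle) and 2466 to 3046 CPM (NAM/PN), with 1 of the 10 above 0 in log2 fold change. The sort excluded cells with CD31, CD45, CD11b or Sca1 on their surface, which mark endothelial, immune and fibro-adipogenic cells, and the part of these cell types in the results was not tested either. Vehicle replicate 3 stood apart with 18.7% of its counts on 1 ribosomal RNA gene, against 5.22% to 11.6% in the other 7 libraries, and NAM/PN replicate 4 held the lowest share. Compared over all genes, the chi-square per degree of freedom between libraries of a condition was 68.0 to 87.4 for pairs with vehicle replicate 3 and 70.7 to 82.4 for pairs with NAM/PN replicate 4, against 23.6 to 29.5 for the other pairs.

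None of the 40 tested members passed the test between NAM/PN and vehicle. With edgeR's quasi-likelihood fit and p-values adjusted over all genes (Benjamini-Hochberg), 0 members were called at an adjusted p under 0.05, where 1.28% of all tested genes were (0.282% higher and 0.995% lower with NAM/PN), and the lowest adjusted p of a member was 0.178, for Ipo7. At an unadjusted p under 0.05 there were 2 members, Ipo7 and Tnpo1, which is 5% of the members against 9.28% of all tested genes. Both were higher with NAM/PN, as were 3.96% of all tested genes at that threshold. DESeq2 and limma's voom with quality weights each called 1 member, Ipo7. The point estimates nevertheless lay mostly on one side. The log2 fold change was above 0 for 27 of 40 members (67.5%), against 49.8% of all tested genes, with a median of 0.17 over the members and -0.0022 over all tested genes. Nup62cl passed the filter on low counts in all 4 NAM/PN libraries and 1 vehicle library, so its sign followed from the filter, and without it the count was 26 of 39 (66.7%) and the median 0.16. No test was made of the list as a whole.

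**Figure D1:**
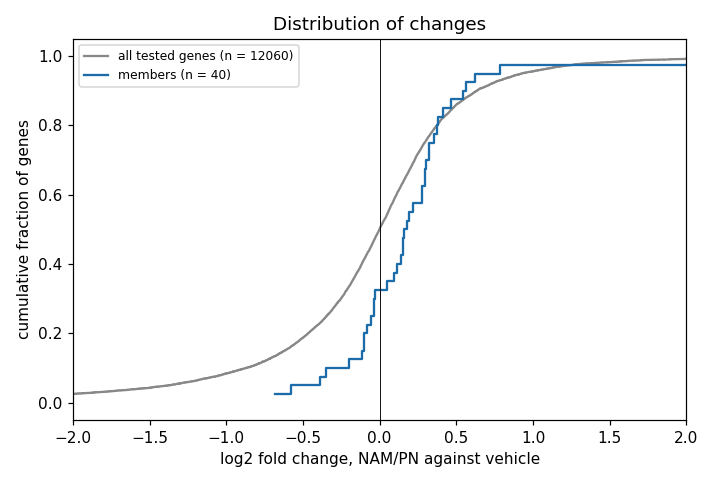
Cumulative fraction of genes (vertical axis) by log2 fold change between NAM/PN and vehicle (horizontal axis, cut at 2 in both directions), for the 40 tested members and all 12060 tested genes. The member curve lies to the right of the curve of all genes around 0, with a median of 0.17 against -0.0022.

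Summed over the 40 members, expression was 3859, 3552, 3728 and 3552 CPM in vehicle replicates 1 to 4 and 4157, 4070, 4221 and 4044 CPM in NAM/PN replicates 1 to 4. In this sum every NAM/PN library was above every vehicle library, and the means were 3673 ± 149 CPM for vehicle and 4123 ± 81.1 CPM for NAM/PN (SD, n = 4 per condition), with the NAM/PN mean higher by 12.3%. Ipo7, Kpnb1 and Tnpo1 together accounted for 42.5% of the difference of 450.4 CPM. Taken within pools, the median over the members of the log2 ratio of NAM/PN to vehicle (0.25 CPM added to both) was 0.23, 0.14, 0.24 and 0.13 in pools 1 to 4, and between 25 and 27 of the 40 members were higher in each pool. The median was thus above 0 in every pool. Nup62cl, whose sign followed from the filter, is among the members counted as higher in each pool. Single members varied more between pools, and 8 were higher in all 4 pools (20% of members against 8.49% of all tested genes, or 7 of 39 without Nup62cl) and 1 was lower in all 4 (2.5% against 11.1%).

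For 4 members (10%) the 2 conditions did not overlap between libraries, against 7.21% of all tested genes (2.79% higher and 4.42% lower with NAM/PN). Ipo7, Tnpo1 and Nup43 were higher in every NAM/PN library than in any vehicle library, and Ipo8 was lower. A share this close to the background is not a result about the members, and the 4 genes are described in the accounts of their families.

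**Figure D2:**
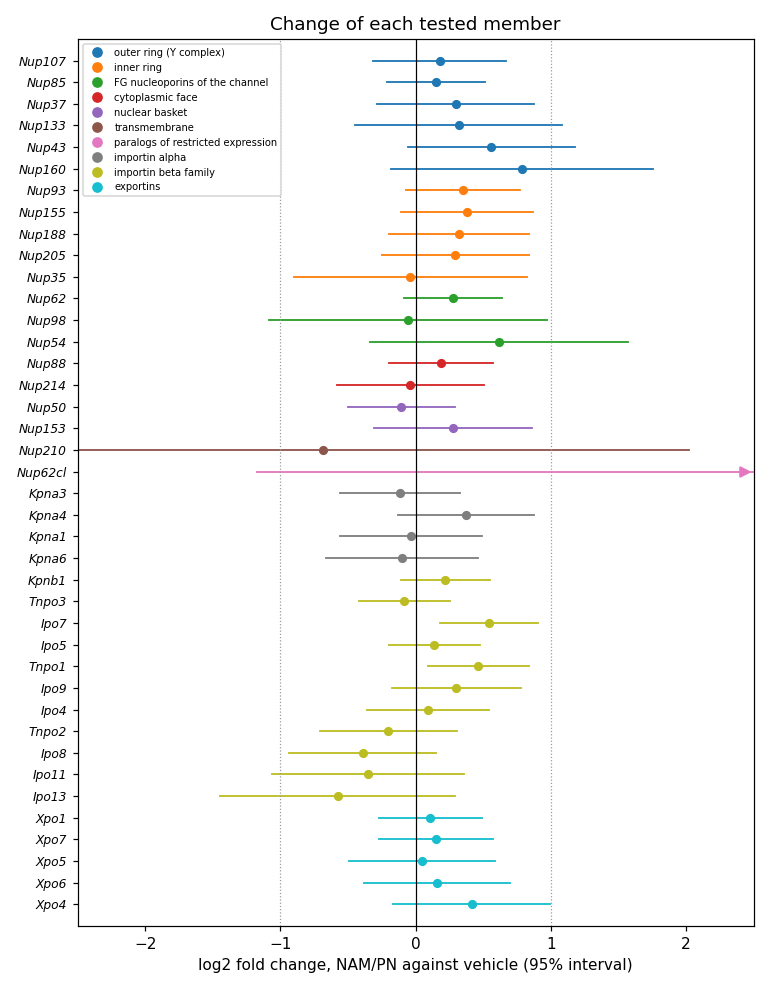
Log2 fold change between NAM/PN and vehicle (horizontal axis) for the 40 tested members, with 95% intervals as bars and colours for the role of the product. Dotted lines mark a 2-fold change in either direction, and the arrow marks Nup62cl, whose estimate of 2.96 lies beyond the axis. Intervals exclude 0 for Ipo7 and Tnpo1 alone.

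The importin β family stands here for Kpnb1 and the Ipo and Tnpo genes of the rule, whose products bind Ran directly. The exportins are described apart. All 11 genes of the family in this sense were tested. Positions are on GRCm38. Of these, 6 had a log2 fold change above 0 and 5 below, with a range from -0.58 for Ipo13, an estimate that rested on 1 library, to 0.54 for Ipo7. Ipo7 (ENSMUSG00000066232, chromosome 7 from 110018274 to 110056609, plus strand), an importin for ribosomal proteins, histones and several signalling proteins, had 262, 216, 167 and 217 CPM in vehicle replicates 1 to 4 and 322, 306, 349 and 280.1 CPM in NAM/PN replicates 1 to 4. Every NAM/PN library exceeded every vehicle library. The means were 215 ± 38.6 and 314 ± 28.9 CPM (SD, n = 4 each), and the log2 fold change was 0.54 (standard error 0.17, 95% interval 0.18 to 0.91), with an edgeR adjusted p = 0.178 (unadjusted 0.00522). Its adjusted p was 0.0392 in DESeq2 and 0.0487 in limma's voom with quality weights, so that its call depended on the tool.

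Tnpo1 (ENSMUSG00000009470, chromosome 13 from 98839019 to 98926384, minus strand), the transportin that imports RNA-binding proteins with a proline-tyrosine signal, followed. It had 135, 107, 105 and 107 CPM with vehicle against 177, 149, 161 and 139 CPM with NAM/PN, again without overlap, though vehicle replicate 1 came within 4.72 CPM of the lowest NAM/PN library. Its log2 fold change was 0.46 (standard error 0.18, 95% interval 0.088 to 0.84), with an edgeR adjusted p = 0.348. Counts of Tnpo1 are less certain than those of Ipo7, since 34.5% of the 50-base words in the last 300 bases of its annotated transcripts also occur in the pseudogene Gm6493.

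Ipo8 (ENSMUSG00000040029, chromosome 6 from 148770683 to 148831467, minus strand), the closest relative of Ipo7, had an estimate of the opposite sign. It had 45, 40.7, 47.7 and 49.1 CPM with vehicle against 40.1, 34.3, 25.7 and 38.9 CPM with NAM/PN. All 4 NAM/PN libraries were below all 4 vehicle libraries, with replicate 3 the lowest. Its log2 fold change was -0.39 (standard error 0.26, 95% interval -0.94 to 0.15), with an edgeR adjusted p = 0.77. As a description chosen after the values were seen, the ratio of Ipo7 to Ipo8 CPM within a library was 5.82, 5.30, 3.51 and 4.42 with vehicle and 8.01, 8.93, 13.6 and 7.19 with NAM/PN. The ratios did not overlap, which follows from the choice of 1 gene that was higher and 1 that was lower in every NAM/PN library and supports nothing further.

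Of the 4 members whose conditions did not overlap, 3 had an entry in the RefSeq promoter table (GRCm38.p6). The 250 bases before their annotated starts are shown as a description. The starts are those of RefSeq and can lie some bases from the gene bounds given above. The windows are printed 5′ to 3′ on the strand of the gene, with capitals for matches to any of 7 short motifs searched on both strands (the NF-Y box CCAAT, the ETS core CCGGAAG, the NRF1 core GCATGCG, the cell cycle motif GCGGGAA, the late cell cycle motif TTTGAA, the E-box CACGTG and the GC box GGGCGG).
Ipo7 (chr7:110018065-110018314, plus strand): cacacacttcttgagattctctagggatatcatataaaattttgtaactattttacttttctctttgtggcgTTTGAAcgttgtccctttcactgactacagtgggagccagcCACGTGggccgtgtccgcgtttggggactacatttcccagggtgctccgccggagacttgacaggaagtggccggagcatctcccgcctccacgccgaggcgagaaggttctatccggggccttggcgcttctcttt
Tnpo1 (chr13:98926385-98926634, minus strand): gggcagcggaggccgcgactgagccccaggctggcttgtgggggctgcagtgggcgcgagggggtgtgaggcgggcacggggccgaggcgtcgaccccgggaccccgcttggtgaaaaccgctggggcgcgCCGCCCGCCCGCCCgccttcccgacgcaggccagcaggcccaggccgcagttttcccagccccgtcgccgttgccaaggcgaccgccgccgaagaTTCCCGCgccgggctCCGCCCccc
Ipo8 (chr6:148831468-148831717, minus strand): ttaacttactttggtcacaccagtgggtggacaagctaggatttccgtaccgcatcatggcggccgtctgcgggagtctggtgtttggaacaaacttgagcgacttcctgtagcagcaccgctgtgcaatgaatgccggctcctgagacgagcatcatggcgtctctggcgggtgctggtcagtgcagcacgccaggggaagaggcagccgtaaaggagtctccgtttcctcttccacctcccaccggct
The Ipo7 window held TTTGAA, a core of promoters active in G2 and mitosis, 178 bases and the E-box CACGTG 137 bases before the start. Of the windows of protein-coding genes, 14.5% held TTTGAA and 6.63% held CACGTG. Tnpo1 has a second window in the table, not shown, with no match. In the printed Tnpo1 window, the complement of GGGCGG began 119, 115, 111 and 9 bases before the start, with the first 3 runs overlapping, and the complement of GCGGGAA began 24 bases before it. The Ipo8 window held no match to the 7 motifs. The GC content was 52.8% for Ipo7, 78% for Tnpo1 and 58% for Ipo8, so the windows also differed in composition. Nup43 was not among the matched genes. The 3 genes shown were picked by their values, and a link between these windows and expression was not tested.

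Kpnb1 (ENSMUSG00000001440, chromosome 11 from 97159714 to 97187881, minus strand), importin β itself and the partner of every importin α, was the most abundant member. It had 326, 303, 286 and 289.8 CPM with vehicle against 345, 344, 302 and 413 CPM with NAM/PN. It was higher with NAM/PN in all 4 pools, but NAM/PN replicate 3 lay below vehicle replicates 1 and 2. The log2 fold change was 0.22 (95% interval -0.11 to 0.55, adjusted p = 0.79 in the edgeR test), and a rise or fall beyond 1.5-fold is outside the interval. Tnpo3, which imports splicing factors with arginine-serine domains, had 352, 327, 343 and 305 CPM with vehicle against 274, 379.8, 316 and 284 CPM with NAM/PN, and its interval of -0.42 to 0.25 on the log2 scale was one of the 3 narrowest among the members. Ipo5, an importin for ribosomal proteins, varied little between vehicle libraries, from 197 to 221 CPM, and ran from 205 to 248 CPM with NAM/PN. Ipo9, a histone importin, was higher with NAM/PN in all 4 pools, yet its ranges of 55.2 to 112 and 82.8 to 123 CPM overlapped. Ipo4, Ipo11, Ipo13 and Tnpo2 had log2 fold changes of 0.092, -0.35, -0.58 and -0.20, none with an adjusted p under 0.79. For Ipo13, which both imports and exports cargo, vehicle replicate 3 alone had 63.6 CPM against 17.5 to 31.1 CPM in the other vehicle libraries, and without it the log2 fold change was -0.076.

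**Figure D3:**
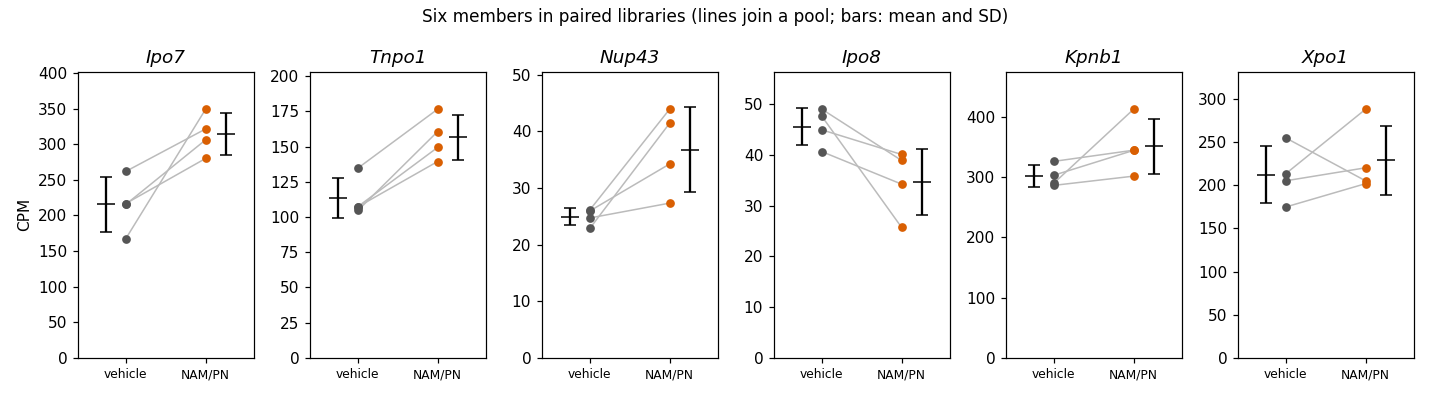
CPM (vertical axes, from 0) of 6 members in the 4 vehicle and 4 NAM/PN libraries, with lines joining libraries of the same pool and black bars for the mean and SD of each condition. Ipo7, Tnpo1 and Nup43 do not overlap between conditions and are higher with NAM/PN, Ipo8 does not overlap and is lower, and Kpnb1 and Xpo1 overlap.

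Importins α are the adaptors that read the classical nuclear localization signal and dock on Kpnb1. Of the 6 members, 4 were tested. Kpna4 had 81.8, 61.3, 104 and 65.2 CPM with vehicle against 108, 131, 63.7 and 102 CPM with NAM/PN, which overlapped through replicate 3 of both conditions (log2 fold change 0.37, standard error 0.24, adjusted p = 0.747 in the edgeR test). Its estimate was 0.23 without NAM/PN replicate 2 and 0.54 without NAM/PN replicate 3. Kpna3, the most abundant importin α and the closest relative of Kpna4, had 126, 147, 244 and 129 CPM with vehicle against 159, 162, 129.7 and 146 CPM with NAM/PN. Vehicle replicate 3 was the highest of its libraries. The log2 fold change of Kpna3 was -0.12 with all libraries and 0.15 without that library. Kpna1 and Kpna6 had log2 fold changes of -0.034 and -0.10.

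The other 2 importins α did not pass the filter. Kpna2, an importin α that is abundant in dividing cells and counts among the genes of G2 and mitosis, had 26 counts in NAM/PN replicate 1 and 0 counts in the other 7 libraries. Its listed level says little about the transcript, because 66.8% of the 50-base words in the last 300 bases of its annotated transcripts also occur in 7 other annotated genes, and how reads with several possible origins were handled is not given in the sources used here. No fold change is therefore given for Kpna2. Kpna7, an oocyte form, had 0 counts in every library.

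Exportins move cargo out of the nucleus with Ran-GTP, and all 5 members were tested. Each had a log2 fold change above 0, from 0.045 for Xpo5, the exporter of microRNA precursors, to 0.42 for Xpo4. None was called, and the signs were not all stable, since Xpo1, Xpo5 and Xpo6 turned negative when 1 library was left out (Xpo1 without NAM/PN replicate 1, and Xpo5 and Xpo6 without vehicle replicate 3, among others for Xpo5). Xpo1, the main exporter for proteins with a leucine-rich signal and the most abundant of the family, had 214, 205, 255 and 175 CPM with vehicle against 288, 220.4, 205 and 202 CPM with NAM/PN. These ranges lay on top of each other, and the 95% interval of its log2 fold change ran from -0.27 to 0.49. Xpo4 had 41.1, 39.2, 65 and 32.3 CPM with vehicle against 70.8, 60.5, 36.9 and 68.6 CPM with NAM/PN. It was higher in 3 of 4 pools and lower in pool 3 (adjusted p = 0.77 in the edgeR test), and 39.4% of the 50-base words at the end of its transcripts also occur in the gene model Gm17873. Xpo7 and Xpo6 had log2 fold changes of 0.15 and 0.16, and Xpo7 was at 0.026 without NAM/PN replicate 4.

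The median log2 fold change of the nucleoporins was 0.28, and 15 of the 20 tested were above 0, while the transport receptors had a median of 0.10, with 12 of 20 above 0. The difference between these 2 groups was not tested. The count and median of the nucleoporins include Nup62cl, whose sign followed from the filter. In the sum over each group, nucleoporins lay between 1185 and 1381 CPM with vehicle against values between 1383 and 1685 CPM with NAM/PN and receptors between 2245 and 2543 CPM with vehicle against values between 2536 and 2687 CPM with NAM/PN. The sums of the nucleoporins did not overlap, with a gap smaller than the spread within either condition, and those of the receptors overlapped only through vehicle replicate 3 and NAM/PN replicate 3.

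The outer ring, or Y complex, is the scaffold that is built first when pores assemble, and 6 of its genes fit the naming rule. All 6 had log2 fold changes above 0, from 0.15 for Nup85 to 0.79 for Nup160. Of its components with other names, Seh1l was at 0.43, Sec13 at -0.19 and lower in all 4 pools, and the attached Ahctf1 at -0.18, none of them called. Nup43 (ENSMUSG00000040034, chromosome 10 from 7667503 to 7678881, plus strand) had 25.9, 24.7, 22.8 and 26.1 CPM with vehicle against 34.2, 27.3, 41.4 and 43.9 CPM with NAM/PN, without overlap and with an SD of 1.51 CPM against 7.49 CPM. Its log2 fold change was 0.56 (standard error 0.29, 95% interval -0.055 to 1.18), with an unadjusted p of 0.0721 and an adjusted p of 0.618 in the edgeR test. The 3′ end of Nup43 lies within Pcmt1 on the opposite strand. Whether reads were counted by strand is not given in the sources used here. It is thus not known whether reads of the 2 genes were told apart. The log2 fold change of Pcmt1 was 0.003, and its part in the Nup43 values was not tested. Nup160 had 11.5, 3.97, 15.1 and 18.7 CPM with vehicle against 18.6, 25.4, 20.9 and 20.3 CPM with NAM/PN. Vehicle replicate 2 was far below the others, and the standard error was 0.46. Nup107, the most abundant of the ring, had 201, 159, 85 and 154 CPM with vehicle against 144, 184, 219 and 132 CPM with NAM/PN, with vehicle replicate 3 the lowest of the 8 libraries, and without it the log2 fold change moved from 0.18 to -0.020. Nup85, Nup37 and Nup133 had log2 fold changes of 0.15, 0.30 and 0.32, and without 1 library Nup37 reached 0.13 (vehicle replicate 4) and Nup133 0.16 (NAM/PN replicate 4) or 0.76 (vehicle replicate 1). For Nup133, vehicle replicate 1 had 51.3 CPM against 20.1 to 22.1 CPM in the other vehicle libraries.

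The inner ring anchors the channel to the membrane. Nup93, its central organizer, had 166, 160.1, 107 and 186 CPM with vehicle against 219.6, 165, 239.5 and 165 CPM with NAM/PN. The lowest NAM/PN libraries fell inside the vehicle range, and the log2 fold change was 0.35 (standard error 0.20, adjusted p = 0.685 in the edgeR test). Nup155, Nup188 and Nup205, the large solenoid proteins of the ring, had estimates of 0.38, 0.32 and 0.29, with Nup155 higher in all 4 pools and Nup205 at 0.086 without NAM/PN replicate 3. Without vehicle replicate 3, Nup188 was at 0.19, and without vehicle replicate 1 at 0.49. Nup35 had -0.038, from fewer counts, and 52.6% of the 50-base words at the end of its transcripts also occur in the gene model Gm4353. In sum, the 5 inner ring genes lay between 242 and 351 CPM with vehicle against values between 329.6 and 455 CPM with NAM/PN, so the conditions overlapped.

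Among the FG nucleoporins of the channel, Nup62 was the most abundant, with 177, 141, 178 and 174 CPM with vehicle against 171, 221, 191 and 229 CPM with NAM/PN. Pool 1 was the only one in which it was lower with NAM/PN (log2 fold change 0.28, standard error 0.17, adjusted p = 0.743 in the edgeR test). Nup54, its partner in the channel, had 8.17, 15, 10.6 and 11.1 CPM with vehicle against 18.2, 14.8, 24.7 and 11.4 CPM with NAM/PN. Nup98, which also carries the outer ring component Nup96 in the same precursor, was the most variable of the group, from 4.74 to 36.9 CPM among vehicle libraries alone. Its log2 fold change of -0.06 turned to 0.15 with the pool as a replicate block and to 0.47 without vehicle replicate 3, so these data give no direction for it. The third partner of Nup62 and Nup54 is listed as Nupl1 in the annotation used here, which placed it outside the rule, and its row held 0 counts in all libraries.

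On the cytoplasmic face, where exported complexes are released, Nup88 had 164, 127, 144 and 118 CPM with vehicle against 150.4, 140.2, 194 and 146 CPM with NAM/PN (log2 fold change 0.19, 95% interval -0.20 to 0.58). The 3′ end of Nup88 overlaps Rabep1 on the opposite strand, with the same uncertainty as for Nup43. Its partner Nup214 had a log2 fold change of -0.038. In the nuclear basket, Nup50 was the more abundant, with 124, 129.9, 130.3 and 169 CPM with vehicle against 127, 103, 147 and 138 CPM with NAM/PN, and Nup153 had 38.4, 38.1, 45.5 and 40.2 CPM with vehicle against 45.7, 51, 70.8 and 28.9 CPM with NAM/PN. Neither basket gene separated the conditions. Nup153 was tight with vehicle and spread widely with NAM/PN, where replicate 3 was the highest and replicate 4 the lowest of all 8 libraries.

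The transmembrane nucleoporin Nup210 had few counts and varied widely, with 7, 10, 71 and 52 counts with vehicle and 38, 23, 7 and 14 counts with NAM/PN. A floor of 3 counts corresponded to between 0.295 and 0.464 CPM. The log2 fold change of -0.68 had a 95% interval of -3.39 to 2.02, which includes a 4-fold change in either direction. Nup62cl, a relative of Nup62, had 12, 0, 0 and 0 counts with vehicle and 21, 9, 34 and 26 with NAM/PN, and its interval of -1.17 to 7.19 was wider still. Nup210l, a relative of Nup210 known from testis, had 16 and 8 counts in vehicle replicates 2 and 4 and 0 counts elsewhere, and it was not tested.

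**Figure D4:**
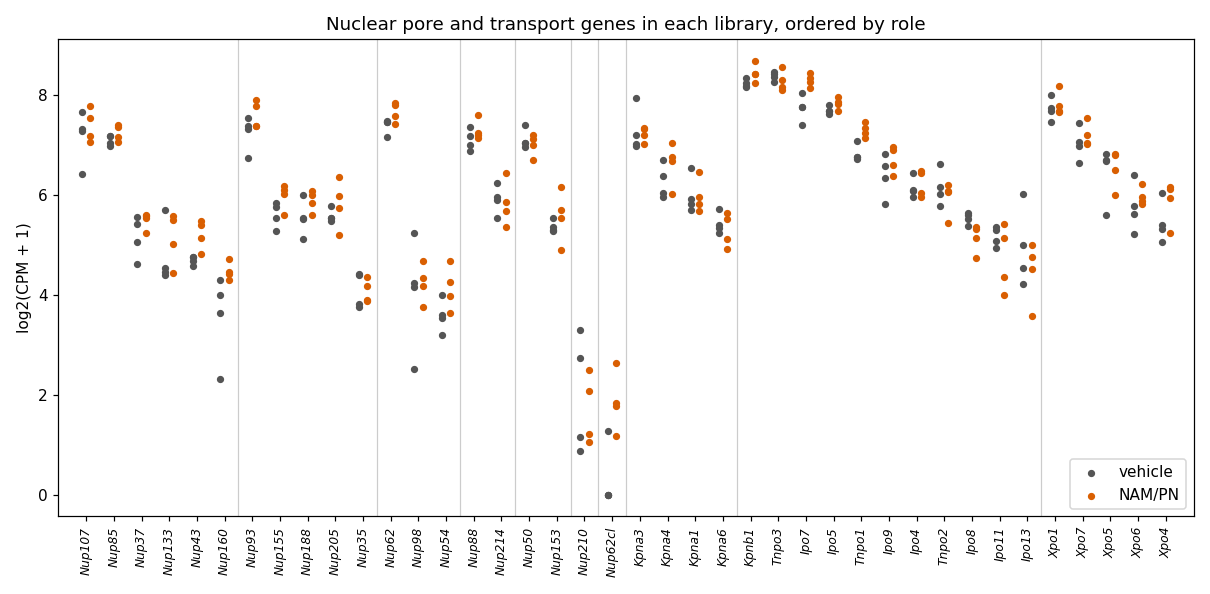
Level of the 40 tested members in each of the 8 libraries, as log2(CPM + 1) on the vertical axis, ordered by role (vertical lines) and by mean level within a role. For 36 of the 40 members the points of the 2 conditions overlap, and Nup210 and Nup62cl lie far below the rest.

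Mean levels over all 8 libraries ran from 1.61 CPM for Nup62cl to 326 CPM for Kpnb1, with a median of 61.6 CPM. For the 14 members with a mean of at least 100 CPM, standard errors of the log2 fold change were at most 0.23, and for the 6 members under 20 CPM they were between 0.41 and 2.0. Intervals lay wholly within a 2-fold change in either direction for 31 of 40 members (77.5%, against 40.3% of all tested genes), including all 14 at or above 100 CPM. For 13 of 40 members (32.5%, against 11.5%) they lay within 1.5-fold. A 2-fold change of Kpnb1, Xpo1, Ipo7, Tnpo3, Nup62 or Nup93 transcripts is thus outside the intervals. Standard errors were smaller at higher levels, and the shares of members and of all tested genes were not compared at matched levels. The median coefficient of variation of the members between libraries was 22.6% with vehicle and 18.7% with NAM/PN. Vehicle replicate 3 was the highest or lowest vehicle library for 77.5% of the members, against 62.7% of all tested genes, and NAM/PN replicate 3 was the highest or lowest NAM/PN library for 67.5% against 48.4%.

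**Figure D5:**
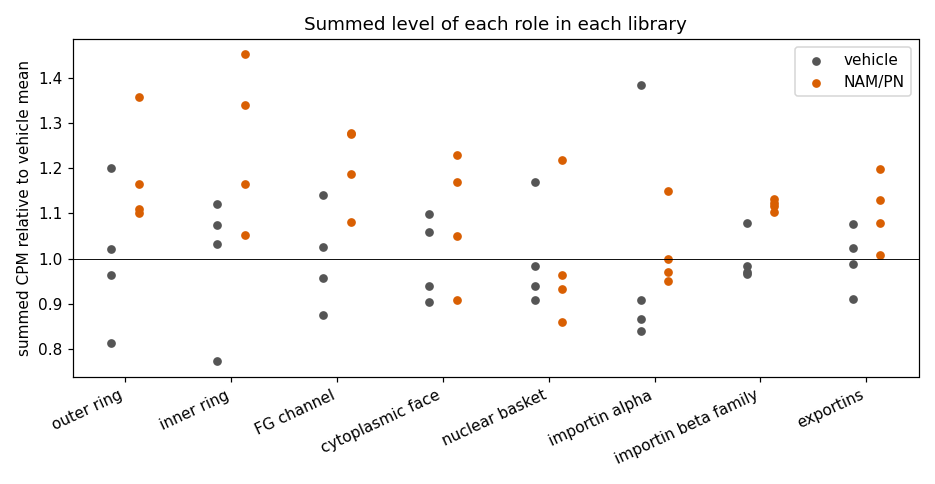
Summed CPM of the members of each role in each library, divided by the vehicle mean of that role (vertical axis), with vehicle in grey and NAM/PN in orange. The roles of Nup210 and Nup62cl are not drawn. Only the importin β family separates the 2 conditions, and they overlap when Ipo7, Kpnb1 or Ipo5 is left out, and vehicle replicate 3 is the highest point for importin α.

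By role, the importin β family was the group whose sums separated the conditions, between 1460 and 1628 CPM with vehicle against values between 1667 and 1711 CPM with NAM/PN. In sums added after the values were seen, which leave out each of the 11 genes in turn, the conditions overlapped without Ipo7, without Kpnb1 or without Ipo5 and stayed apart in the other 8 cases. The median log2 fold change of the family was 0.092. Importin α sums were between 290.6 and 479.9 CPM with vehicle against values between 328.9 and 398.5 CPM with NAM/PN. The sums of the outer ring, inner ring, FG channel, cytoplasmic face, basket and exportins all overlapped between conditions. The median log2 fold change over the members, 0.17, was 0.19 without vehicle replicate 3, 0.17 without NAM/PN replicate 4, 0.25 without vehicle replicate 1 and 0.10 without NAM/PN replicate 3.

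Genes of the same machinery that the rule leaves out were taken from fixed lists. Of 12 other pore components, 11 were tested and 0 called, with 6 above 0 and a median log2 fold change of 0.031. Ndc1, a transmembrane nucleoporin, had the smallest p, at a log2 fold change of 0.45 (adjusted p = 0.49 in the edgeR test). Of 9 genes of the Ran cycle, 8 were tested and all 8 were above 0, with a median of 0.20 and 0 called. Rcc1, the exchange factor that makes Ran-GTP on chromatin, had 0.30 (adjusted p = 0.782 in the edgeR test), and Ran itself had 0.17. The sum over these 8 genes lay between 1282 and 1766 CPM with vehicle against values between 1669 and 1831 CPM with NAM/PN, which overlapped. Among 11 other transport receptors and adaptors, 7 were above 0 (median 0.14, 0 called). Cse1l, which returns importin α to the cytoplasm, had the smallest p, with 0.26 (adjusted p = 0.743 in the edgeR test). Among 15 mRNA export genes, 14 were tested, 8 were above 0 and 0 were called, and the smallest p belonged to Mcm3ap, a scaffold of the export complex TREX-2, at -0.75 (adjusted p = 0.238). In the lamina and nuclear envelope list, 10 of 16 genes were above 0 and 0 were called, and Syne1, which encodes the nesprin that links muscle nuclei to the cytoskeleton, had the smallest p, with -2.21 (adjusted p = 0.226).

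Cell cycle genes were taken from 2 further lists. Of the 16 S-phase genes 15 were above 0, with a median of 0.26 and 0 called, and of the 16 genes of G2 and mitosis 12 were above 0, with a median of 0.046 and 0 called. The median of the nuclear pore and transport members, 0.17, lies between those of these 2 lists, as values side by side without a test of their difference. All 14 differentiation markers were below 0, with a median of -2.27.

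Promoter windows were found for 34 of the 43 members, 41 windows in all, because several genes have more than 1 start. CCAAT, the box bound by NF-Y, was in 51.2% of the 41 windows, against 35.4% of windows of protein-coding genes and 33.8% of all windows of the table. GGGCGG, the GC box, was in 61% against 42.6% and 32.7%. CCGGAAG, a core of ETS sites, was in 17.1% against 8.98% and 6.91%, and GCATGCG was in 9.76% against 3.73% and 3.02%. CACGTG was in 12.2% against 6.63% and 6.02%, GCGGGAA in 7.32% against 4.96% and 3.82%, and TTTGAA in 19.5% against 14.5% and 16%. Each of the 7 motifs was in a larger share of the member windows, which rests on between 3 and 25 windows per motif, and member windows were also richer in GC, with a median of 64% against 55.6% for protein-coding genes. The Kpnb1 window (chr11:97187893-97188142, minus strand) is shown as an example chosen after the matches were seen, with 3 CCAAT boxes 195, 155 and 122 bases before the start and 2 complements of GGGCGG, in capitals.
Kpnb1: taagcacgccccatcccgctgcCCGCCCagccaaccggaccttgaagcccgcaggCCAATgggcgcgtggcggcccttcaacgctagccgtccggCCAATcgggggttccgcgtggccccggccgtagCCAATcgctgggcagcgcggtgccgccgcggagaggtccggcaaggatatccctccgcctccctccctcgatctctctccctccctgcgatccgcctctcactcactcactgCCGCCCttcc
These matches describe the letters of the windows and not occupied sites.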

How the data were processed

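Cultured MuSCs were profiled with 3′ QuantSeq libraries, 4 with vehicle and 4 with NAM/PN. The authors deposited raw counts per gene, made per the labels with RNASTAR and HTSeq (2.16.2 in the submitters' processing notes) on GRCm38, and the strand setting and annotation release are not given in the sources used here. Gene names and positions came from GENCODE M21 (GRCm38), and 55227 of 55487 identifiers matched. Totals of 6472484 to 10163101 counts put the floor of 3 counts at 0.295 to 0.464 CPM, and floors cover counting error only.

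Genes passed edgeR's filterByExpr, were scaled by TMM and tested with edgeR 4.0.16 (quasi-likelihood, no block, Benjamini-Hochberg over 12060 genes, threshold 0.05). The fit was tested on simulated data. P-values measure the spread between the libraries of a condition, in which differences between pools, cultures and library preparations are not separated. Alternatives were the pool as a replicate block, DESeq2 1.42.0, limma 3.58.1 (voom with quality weights), RLE size factors, no filter, no top gene, a threshold of 0.10 and leaving out each library. Libraries with the same number come from the same pool of mice, so the numbers pair the samples, and the correlation of their deviations from the group means was between -0.033 and 0.031 over all genes and -0.39, -0.14, -0.52 and -0.20 over the members in pools 1 to 4. No pair of libraries agreed within sampling noise (lowest chi-square per degree of freedom 23.6).

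Values per library are given for members with an adjusted or unadjusted p under 0.05, for the smallest p and highest mean in each role, and for members that failed the filter, with other members where a role needs them. Ipo8 was added after its values were seen. The members and lists were chosen with earlier results of these data known. Protein sequences were not used here.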

Additional observations from a re-analysis of the deposited data

Results flagged for a closer look

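In 6 of 82 groups of 4 libraries, 1 library lay far from the other 3, measured as its gap to the nearest divided by the range of the group, where Dixon's 95% critical value is the limit and chance exceeds it in about 1 in 20 groups, 4.1 of those examined. All 6 were vehicle groups. Nup133 had 51.3 CPM in vehicle replicate 1 against 20.1 to 22.1 in the others (0.937). Nup50 had 169 CPM in vehicle replicate 4 against 124 to 130.3 (0.860). Nup62 had 141 CPM in vehicle replicate 2 against 174 to 178 (0.891). Nup62cl had 1.42 CPM in vehicle replicate 1 and 0 in the others (1.0). Tnpo1 had 135 CPM in vehicle replicate 1 against 105 to 107 (0.910). Xpo5 had 47.4 CPM in vehicle replicate 3 against 101 to 112 (0.837).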

How the results depend on the processing

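Over all genes, 154 were called, against 156 with the pool as a replicate block, 366 without a filter, 388 with DESeq2, 232 with voom and 244 at an adjusted p under 0.10, and between 80 and 177 when 1 library was left out. Among the members, 0 were called with the block, without any 1 library (0 to 0), with RLE factors, without the filter and without the top gene, and 1, Ipo7, with DESeq2 (log2 fold change 0.54) and with voom (0.53). Members with an unadjusted p under 0.05 numbered 5 with voom and 1 to 4 without 1 library. Members with an estimate above 0 numbered 28 with the block and 27 to 30 without 1 library, and their median was 0.20 with the block and 0.10 to 0.25 without 1 library (0.25 without vehicle replicate 1, 0.10 without NAM/PN replicate 3). The block changed the call of no member. Of the 40 members, 29 kept direction and call in all 14 settings and 10 changed sign in at least 1. With voom these were Kpna1 (0.081), Kpna3 (0.077), Nup35 (0.11), Nup98 (0.45) and Xpo5 (-0.064), and with the block Nup98 (0.15). When 1 library was left out, the log2 fold changes ranged as follows among those that changed sign, namely Kpna1 -0.22 to 0.18, Kpna3 -0.22 to 0.15, Kpna6 -0.23 to 0.012, Nup107 -0.02 to 0.35, Nup214 -0.29 to 0.11, Nup35 -0.15 to 0.07, Nup98 -0.38 to 0.47, Xpo1 -0.021 to 0.20, Xpo5 -0.17 to 0.19 and Xpo6 -0.002 to 0.42. Of the 30 members with 1 sign in all these fits, 22 moved by over 1.5 times, namely Ipo11 -0.62 to -0.15, Ipo13 -0.79 to -0.076, Ipo4 0.0027 to 0.20, Ipo9 0.14 to 0.45, Kpna4 0.23 to 0.54, Kpnb1 0.13 to 0.29, Nup133 0.16 to 0.76, Nup153 0.045 to 0.46, Nup160 0.49 to 1.05, Nup188 0.19 to 0.49, Nup205 0.086 to 0.47, Nup210 -1.14 to -0.016, Nup37 0.13 to 0.44, Nup50 -0.17 to -0.0014, Nup54 0.40 to 0.79, Nup62cl 2.51 to 7.57, Nup88 0.074 to 0.28, Nup93 0.20 to 0.45, Tnpo2 -0.32 to -0.024, Tnpo3 -0.19 to -0.023, Xpo4 0.28 to 0.65 and Xpo7 0.026 to 0.30. Without vehicle replicate 3, Nup107 was at -0.020, Nup35 at 0.070 and Xpo6 at -0.0020. The causes were not tested.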
